A study of Mus musculus with 46 samples.

Results

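The genes described here encode the subunits of the LMO2 bridging complex, and they were followed in sorted mouse T cells that carried an LMO2 transgene or were wild type. The members were chosen by symbol: Lmo2, Lyl1, Tal1, Ldb1, Ssbp2, Ssbp3, Ssbp4, Lmo4, Cbfa2t3 and Cbfa2t2, which are 10 of the 19521 genes in the count table. The groups were 8 from animals labelled hCD2-LMO2 knock-in (TG) and 6 from wild-type animals (WT), all of the C57BL/6 strain. TG and WT thymocytes were each sorted as DN1 and DN3, which are early subsets of the CD4- CD8- double-negative cells, as total DN, as CD4+ CD8+ double-positive (DP) cells, and as CD4 or CD8 single-positive cells (CD4SP, CD8SP). TG splenic CD4 and CD8 T cells (S_CD4, S_CD8) were sequenced without a WT counterpart. There were 3 libraries in 13 of the 14 groups and 1 library of WT DN1. The labels give hCD2 as the name of the construct, and human CD2 elements are known to drive expression in T-lineage cells. The series title calls the animals transgenic and the labels call them knock-in. No label or protocol gives the animals' age or sex, or says whether animals were pooled, so the p-values measure the spread between these samples, which may be technical. Whether the transgene has a mouse or a human sequence is not given either, and the values of Lmo2 are reads on the mouse gene.

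LMO2 is a LIM-domain protein that does not bind DNA itself. It joins a helix-loop-helix dimer, made of TAL1 or LYL1 with an E protein, to GATA factors and to LDB1, an adaptor that pairs with itself and can bring distant sites together. SSBP proteins bind LDB1 and are known to protect it and its LIM partners from degradation, LMO4 is another LIM-only protein that can occupy LDB1, and CBFA2T3 (ETO2) and CBFA2T2 (MTGR1) are corepressors recruited to the complex. In normal thymus LMO2 and LYL1 belong to the earliest precursors, and LMO2, LYL1 and TAL1 are known T-cell leukaemia oncogenes.

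Promoters are shown for Lyl1, Cbfa2t3 and Ssbp3, which with Lmo2 were the members called higher in TG cells in each of DN3, total DN and CD4SP, at the starts that RefSeq gave (GRCm38.p6). Each sequence is the 250 bases before an annotated start, read 5′ to 3′ on the gene's strand. Capitals mark the E-box CANNTG, the GATA motif AGATAA, and the ETS motifs CCGGAAG and AGGAAG, on either strand.
Lyl1, chr8:84701207-84701456, plus strand: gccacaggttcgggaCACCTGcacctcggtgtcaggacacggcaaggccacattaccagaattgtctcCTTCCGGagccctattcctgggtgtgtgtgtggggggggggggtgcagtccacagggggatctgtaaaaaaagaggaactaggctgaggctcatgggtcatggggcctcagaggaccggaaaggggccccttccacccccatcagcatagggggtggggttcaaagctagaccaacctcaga
Cbfa2t3, upstream start, chr8:122699110-122699359, minus strand: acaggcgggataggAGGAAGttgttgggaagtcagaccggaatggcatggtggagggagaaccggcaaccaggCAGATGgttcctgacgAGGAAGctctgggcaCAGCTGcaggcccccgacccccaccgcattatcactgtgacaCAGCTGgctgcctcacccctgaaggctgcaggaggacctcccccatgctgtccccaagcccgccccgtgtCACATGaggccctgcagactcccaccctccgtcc
Cbfa2t3, downstream start, chr8:122678176-122678425, minus strand: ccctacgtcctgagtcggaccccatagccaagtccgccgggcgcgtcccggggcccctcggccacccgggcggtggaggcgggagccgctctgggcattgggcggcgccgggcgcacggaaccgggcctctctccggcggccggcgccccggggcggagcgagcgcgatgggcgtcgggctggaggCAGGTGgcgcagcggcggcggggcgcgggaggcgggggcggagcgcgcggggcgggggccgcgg
Ssbp3, upstream start, chr4:106911220-106911469, plus strand: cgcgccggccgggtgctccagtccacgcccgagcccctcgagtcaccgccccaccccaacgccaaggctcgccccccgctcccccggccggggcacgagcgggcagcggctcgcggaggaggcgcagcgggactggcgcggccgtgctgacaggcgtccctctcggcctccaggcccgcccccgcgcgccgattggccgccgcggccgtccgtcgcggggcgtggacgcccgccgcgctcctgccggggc
Ssbp3, downstream start, chr4:106922935-106923184, plus strand: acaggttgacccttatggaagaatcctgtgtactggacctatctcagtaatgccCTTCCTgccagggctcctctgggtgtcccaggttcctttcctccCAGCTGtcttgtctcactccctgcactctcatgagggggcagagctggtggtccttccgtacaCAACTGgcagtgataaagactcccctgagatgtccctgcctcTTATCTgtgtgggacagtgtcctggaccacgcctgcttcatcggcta

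The Lyl1 window holds 1 E-box and 1 ETS motif. The upstream Cbfa2t3 window holds 4 E-boxes, of which 3 have the form CAGNTG, and 2 ETS motifs, whereas the downstream one is 83.2% G and C and holds 1 E-box. The upstream Ssbp3 window holds 0 of these motifs, and the downstream one holds 2 E-boxes, 1 GATA motif and 1 ETS motif. The windows of Cbfa2t2 and Ssbp2, not shown, hold 0. Over the 16 windows of the 9 members in the table (not Lmo2), an E-box was found in 8 windows (6 genes), and 66.2% of the 32851 promoters of that length hold one. The Lmo4 windows chr3:144202397-144202646 and chr3:144202333-144202582 overlap and hold the same E-box, which is counted in each. CAGNTG, which is a subset of CANNTG, was found in 6 of the 16 windows (44.8% of all promoters), the GATA motif in 3 (9.99%) and an ETS motif in 5 (34.5%). The RUNX motif TGTGGT was found in 0 of the 16 windows (14% of all promoters). With 100 bases in place of 250, 4 windows (3 genes) held an E-box (34.4% of all promoters). A match describes these letters and is not evidence of binding.

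Library totals ran from 17211426 to 28842773 reads, and levels below are CPM, read counts scaled by each library's size with TMM factors over all 40 libraries. Several libraries stood apart from their labels. The library labelled TG DP replicate 3 had Lmo2 at 0.397 CPM. The 3 TG CD4SP libraries differed among themselves: replicate 1 had Cd4 at 191 CPM, Cd8a at 92.4 CPM and Cpa3, a DN and mast-cell protease gene, at 1890 CPM, and replicate 2 had Cd8a at 3070 CPM and Rag1, a recombinase gene of DP cells, at 6440 CPM. TG CD4SP replicate 3 had Cpa3 at 257 CPM and Rag1 at 2270 CPM, while WT CD4SP libraries had Cpa3 at 0.117 to 0.168 CPM and Rag1 at 48.7 to 292 CPM. Rag1 was also high in TG CD8SP replicate 3 (6100 CPM) and in WT CD8SP replicate 3 (2980 CPM). The DN1 libraries had Cd4 at 407 to 666 CPM in TG and 530 CPM in WT, against 7.26 to 29.7 CPM in TG DN3. The 6 B-cell markers summed to 568 to 883 CPM in TG DN1, 1360 CPM in WT DN1 and 8.7 to 13.4 CPM in TG DN3. The 7 myeloid markers summed to 254 to 500 CPM in TG DN1 and 2.31 to 3.78 CPM in TG DN3. Their part in the differences between DN3 and DN1 was not tested. In bulk RNA, fewer cells of a type and less RNA per cell cannot be told apart.

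**Figure D1:**
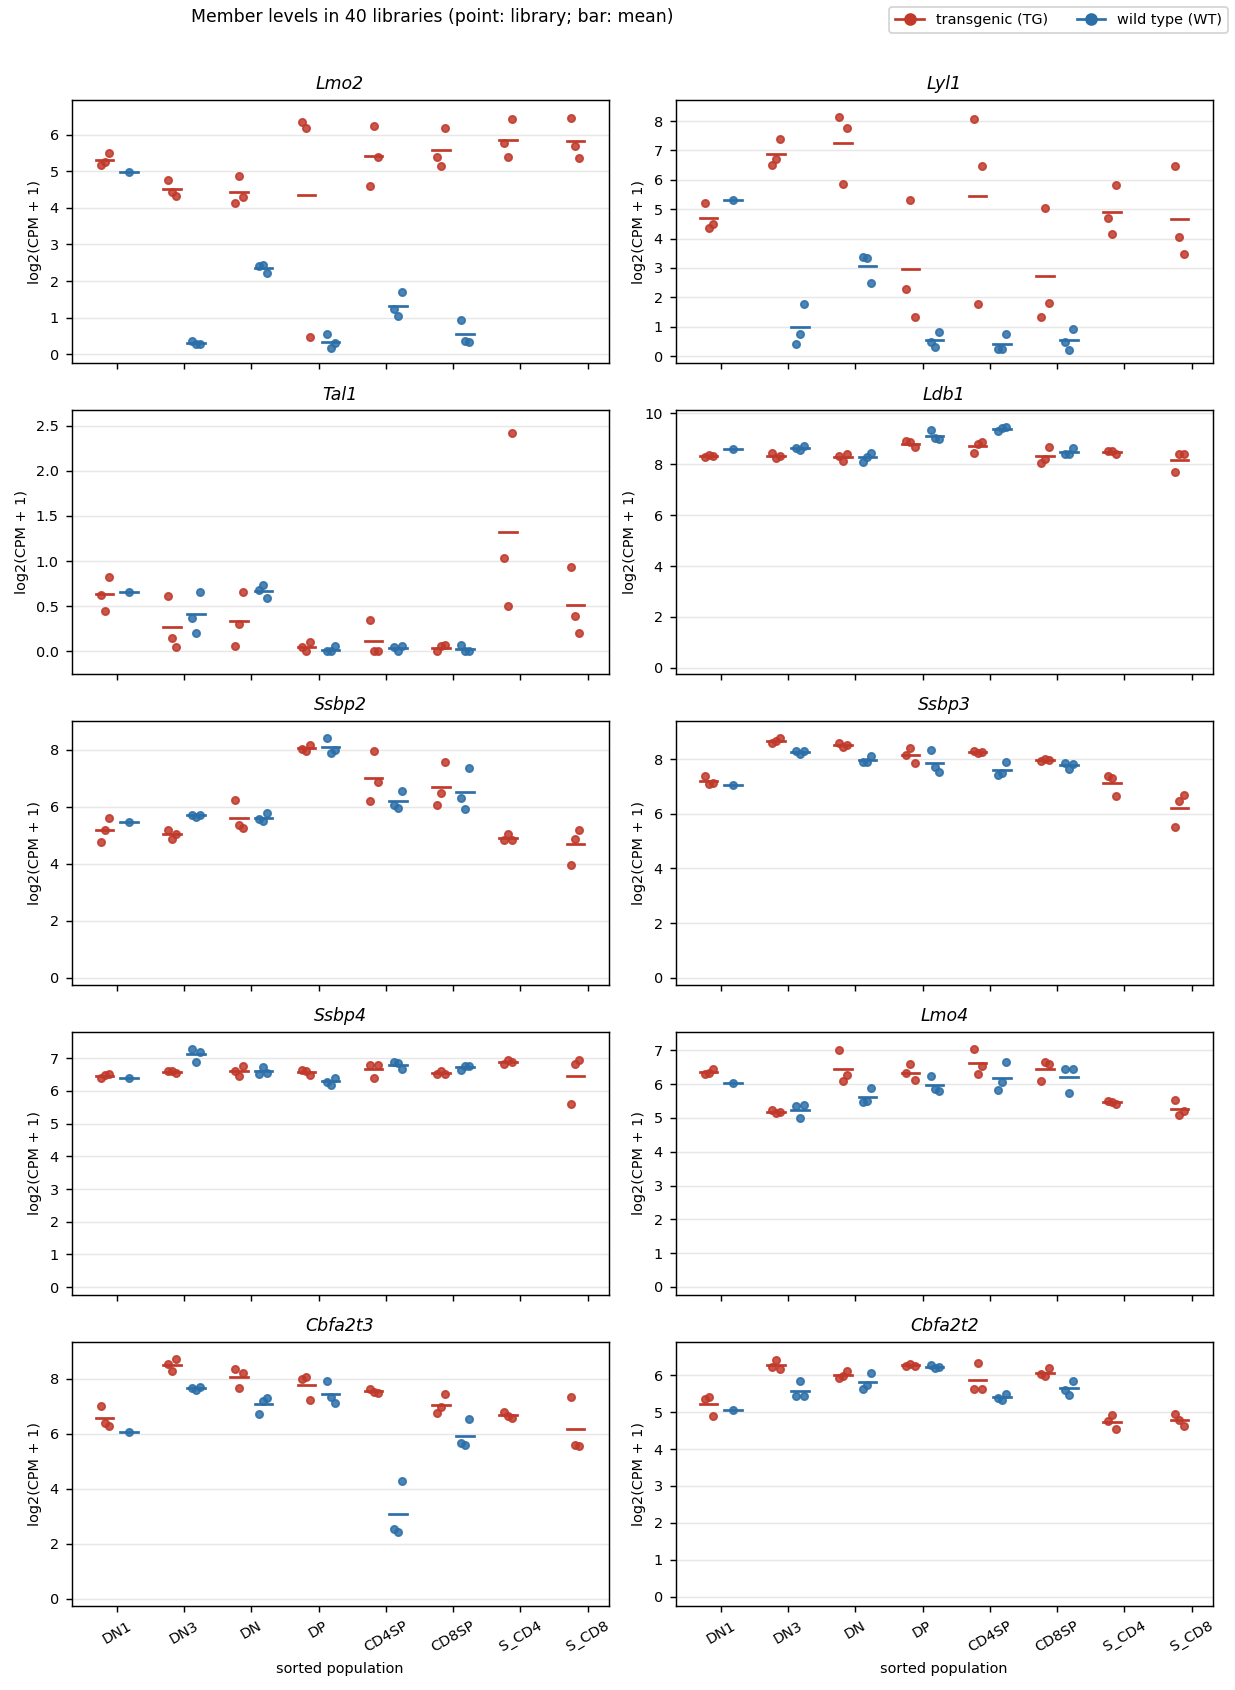
Levels of the 10 members in all 40 libraries, as log2(CPM + 1) on the y axis, by sorted population on the x axis; each point is a library, each bar the group mean, TG in red left of WT in blue. Lmo2 and Lyl1 are at 2.42 CPM or less in every WT library past DN1 except in total DN, Tal1 is near 0 almost throughout, and Ssbp2 peaks in DP cells of both genotypes.

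Lmo2 (gene 16909, chromosome 2, 103957903 to 103981878) checks the labels. In DN1 cells it had 35.1, 37.4 and 44.2 CPM in TG libraries and 30.7 CPM in the WT library. In DN3 cells it had 26.2, 20.4 and 19.2 CPM in TG libraries and 0.295, 0.226 and 0.217 CPM in WT libraries. WT DN3 libraries thus held 6 to 8 reads of it each, and every TG DN3 library was far above. Total DN cells had 16.5, 28.0 and 18.7 CPM in TG and 4.35, 4.42 and 3.66 CPM in WT. DP cells had 80.6, 71.9 and 0.397 CPM in TG and 0.479, 0.122 and 0.243 CPM in WT. The third TG DP library therefore lay within the WT range, and the other 2 were well above every WT library. CD4SP cells had 23.4, 74.8 and 41.2 CPM in TG and 1.34, 1.05 and 2.26 CPM in WT. CD8SP cells had 41.0, 34.6 and 71.7 CPM in TG and 0.914, 0.295 and 0.26 CPM in WT. Splenic TG cells had 53.4, 40.5 and 85.2 CPM in S_CD4 and 87.1, 50.3 and 40.3 CPM in S_CD8. Relative to the thymus, the log2 difference was 0.37 ± 0.46 for TG S_CD4 against TG CD4SP and 0.22 ± 0.39 for TG S_CD8 against TG CD8SP, and neither passed (adjusted p = 0.592 and 0.677).

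The order of the group means began with TG S_CD4 (59.7 CPM) and TG S_CD8 (59.2 CPM). TG DP, TG CD8SP and TG CD4SP, whose libraries overlapped, came next, and then TG DN1 (38.9 CPM). The lone WT DN1 library (30.7 CPM) followed, above TG DN3 (21.9 CPM) and TG total DN (21.1 CPM). The order ended with WT DP (0.282 CPM) and WT DN3 (0.246 CPM). Of the 13 neighbouring pairs in this order, 5 did not overlap. The highest splenic values were 85.2 CPM in TG S_CD4 replicate 3 and 87.1 CPM in TG S_CD8 replicate 1. Those libraries had Lyz2, a myeloid gene, at 1540 and 1320 CPM, against 38.2 to 208 CPM in the other spleen libraries. The part of cell makeup in the splenic Lmo2 levels was not tested. In TG cells Lmo2 was lower in DN3 than in DN1, by a log2 difference of -0.94 ± 0.15 (standard error, adjusted p = 0.000943). In WT cells it was higher in CD4SP than in DP cells, by 2.52 ± 0.54 on the log2 scale (adjusted p = 0.008).

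Lmo2 passed the test in 4 of the 5 stages that had 3 libraries of each genotype. The log2 difference between TG and WT was 6.47 ± 0.24 (standard error) in DN3 (adjusted p = 9.99e-07), 2.29 ± 0.26 in total DN (adjusted p = 0.00338), 4.92 ± 0.55 in CD4SP (adjusted p = 0.0058) and 6.68 ± 0.54 in CD8SP (adjusted p = 0.00337). These and all adjusted p below come from the quasi-likelihood test of edgeR, adjusted over all genes tested, with a threshold of 0.05. The CD4SP call was lost without WT CD4SP replicate 1 (adjusted p = 0.057) and the CD8SP call without WT CD8SP replicate 2 (adjusted p = 0.0517). In DP cells the difference of 7.5 ± 1.7 did not pass (adjusted p = 0.213). Without the library labelled TG DP replicate 3 it was 8.08 and passed (adjusted p = 0.000621), in 1 of 6 fits with a library left out (adjusted p up to 0.582). That library was singled out after its Lmo2 value was seen, so this pass is no independent evidence on Lmo2. In DN1 cells the difference was 0.34 ± 1.01 (adjusted p = 1.0), where the lone WT library is taken to vary like the other groups.

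Lyl1 and Tal1 encode the alternative helix-loop-helix subunits, and in TG groups nearly all reads were on Lyl1. The WT DN3 libraries together held 94 reads of Lyl1 and 28 of Tal1. Lyl1 (gene 17095, chromosome 8, 84701423 to 84704716) had 90.6, 104 and 165 CPM in TG DN3 libraries and 0.332, 0.679 and 2.42 CPM in WT DN3 libraries. It had 280, 56.4 and 218 CPM in TG total DN and 9.27, 9.22 and 4.64 CPM in WT total DN. TG values were above WT values in every library of these stages, while in DN1 the TG libraries, at 36.5, 19.4 and 21.6 CPM, were below the WT library at 38.8 CPM. In later thymocytes the TG libraries of a group differed widely from each other. DP cells had 3.85, 39.2 and 1.51 CPM in TG and 0.383, 0.244 and 0.771 CPM in WT. CD4SP cells had 267, 2.45 and 88.2 CPM in TG and 0.191, 0.195 and 0.671 CPM in WT. CD8SP cells had 1.53, 31.8 and 2.48 CPM in TG and 0.385, 0.148 and 0.911 CPM in WT. Each TG library was above each WT library of its stage also here. Splenic TG cells had 25.2, 16.7 and 55.4 CPM in S_CD4 and 87.9, 15.6 and 10 CPM in S_CD8.

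The log2 difference of Lyl1 between TG and WT was 6.72 ± 0.60 in DN3 (adjusted p = 0.000212), 4.53 ± 0.67 in total DN (adjusted p = 0.0139) and 8.40 ± 1.73 in CD4SP (adjusted p = 0.0184). The total DN call was lost without WT DN replicate 1 or 2 (adjusted p up to 0.0959), and the CD4SP call without any of the 3 WT CD4SP libraries (adjusted p up to 0.102). With TG CD4SP replicates 1 and 3 left out, a choice made after their markers were seen, which leaves replicate 2 as the lone TG library, itself with Rag1 at 6440 CPM, the CD4SP difference was 2.81. With a term for count columns whose names end in N, a suffix that no label explains, Lyl1 differed by 2.81 in CD4SP and did not pass (adjusted p = 0.0554), and by 2.82 in total DN (adjusted p = 0.0175). In both of these stages N marks TG replicates 1 and 3 and no WT library, so the term leaves TG replicate 2 alone against WT. For CD4SP this is the same contrast as leaving replicates 1 and 3 out and no separate check. In DP and CD8SP the differences of 4.95 ± 1.27 and 4.63 ± 1.33 did not pass (adjusted p = 0.213 and 0.108). Without the library labelled TG DP replicate 3, singled out by its Lmo2 value, the DP difference was 5.48 (adjusted p = 0.0339). That was 1 of 6 fits with a library left out, and the others did not pass (adjusted p up to 0.582). Within TG cells Lyl1 was higher in DN3 than in DN1, by 2.10 ± 0.31 on the log2 scale (adjusted p = 0.000693), the opposite direction to Lmo2.

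The TG thymic libraries with high Lyl1 were those with high Cpa3. Cpa3 had 3.59, 179 and 0.0721 CPM in TG DP replicates 1 to 3, 1890, 2.15 and 257 CPM in TG CD4SP, and 3.24, 246 and 3.57 CPM in TG CD8SP. In each of these groups the library with the highest Lyl1 was the one with the highest Cpa3. TG DP replicate 2, TG CD4SP replicates 1 and 3, TG CD8SP replicate 2 and TG total DN replicates 1 and 3, which had the higher Lyl1 of their groups, are also the thymic TG libraries whose count columns end in N, as do 2 of the 3 columns of each TG spleen group, those with the lower Lyl1. Among WT libraries, the columns of DP replicate 1 and CD8SP replicate 1 end in N, with Lyl1 at 0.383 and 0.385 CPM. The summed level of the 7 mast and basophil markers was 727 to 1220 CPM in TG DN3 and 73.4 to 128 CPM in WT DN3, with Ms4a2, Mcpt4 and Cma1 at 0 reads in every DN3 library. In the spleen Cpa3 was 0.143 to 0.892 CPM beside the Lyl1 levels above. The highest splenic Lyl1 of each group lay in TG S_CD4 replicate 3 and TG S_CD8 replicate 1. These had Lyz2, a myeloid gene, at 1540 and 1320 CPM and Cd79a, a B-cell gene, at 858 and 949 CPM. The other spleen libraries had Lyz2 at 38.2 to 208 CPM and Cd79a at 176 to 388 CPM. The part of cell makeup in the Lyl1 differences past DN3 was not tested.

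**Figure D2:**
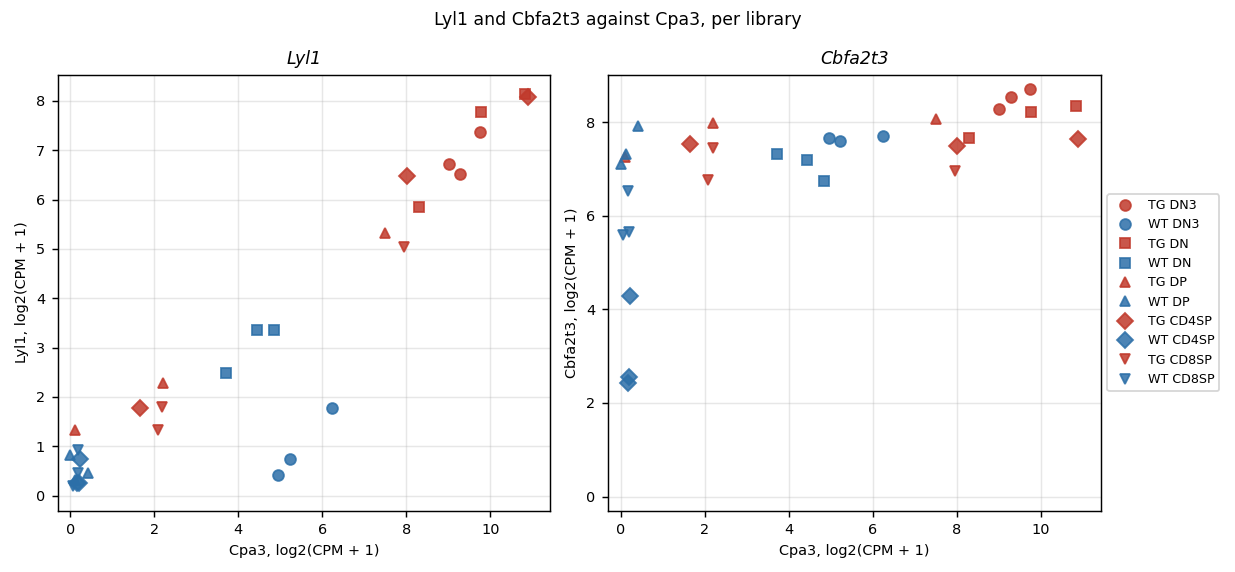
Lyl1 (left) and Cbfa2t3 (right) on the y axis against Cpa3 on the x axis, both as log2(CPM + 1), in the 30 thymic libraries of DN3, total DN, DP, CD4SP and CD8SP; TG in red, WT in blue, shape gives the stage. Lyl1 is high in the TG libraries with high Cpa3 whatever their stage, while Cbfa2t3 is at 179 to 198 CPM in all 3 TG CD4SP libraries, whose Cpa3 runs from 2.15 to 1890 CPM.

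Tal1 (gene 21349, chromosome 4, 115056426 to 115071755) was close to undetected. Its highest values were 4.36 CPM (88 reads) in TG S_CD4 replicate 3, whose 9 erythroid markers summed to 58800 CPM, and 1.05 CPM in TG S_CD4 replicate 1. Elsewhere it stayed at 0.917 CPM or less, and in WT DP it had 0, 0 and 1 read. It passed the filter on low counts among the genotype comparisons in total DN, where the difference was -1.12 ± 0.77 (adjusted p = 0.346), and in the DN1 fit. Per length, from the deposited FPKM, Lyl1 made up 99.9% ± 0.13 of the sum of Lyl1 and Tal1 in TG DN3 and 85.4% ± 10.4 in WT DN3 (SD, n = 3 each).

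Ldb1 (gene 16825, chromosome 19, 46031525 to 46048145), the adaptor, had the highest mean FPKM of the 10 in each of the 14 groups. It had 162 FPKM in TG DN3 and 224 FPKM in WT DN3, against 14.7 FPKM of Lmo2 in TG DN3. The ratio of Lmo2 to Ldb1 by FPKM was 0.0904 ± 0.00908 in TG DN3 and 0.000853 ± 0.000178 in WT DN3 (SD, n = 3 each). In TG DN1 the ratio was 0.163 ± 0.0194 (n = 3) and in the WT DN1 library 0.11. In CPM, Ldb1 had 350, 301 and 317 in TG DN3 libraries and 404, 376 and 426 in WT DN3 libraries. The groups did not overlap, as for 57.8% of all genes tested in DN3. The log2 difference was -0.30 ± 0.10 (adjusted p = 0.0428), and the call was kept in 1 of 6 fits with a library left out, that without WT DN3 replicate 2 (largest adjusted p of the others, 0.174). CD4SP cells had 351, 442 and 464 CPM in TG and 630, 686 and 699 CPM in WT, a difference of -0.67 ± 0.19 (adjusted p = 0.0445) that was lost without any of the WT CD4SP libraries (adjusted p up to 0.166) and with the term for N (-0.59, adjusted p = 0.201). Over the 14 groups the mean of Ldb1 ranged 2.3-fold, between 672 CPM in WT CD4SP and 292 CPM in TG S_CD8.

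The SSBP genes shifted in opposite directions in DN3 cells. Ssbp3 (gene 72475, chromosome 4, 106911470 to 107049694) had 384, 402 and 433 CPM in TG DN3 and 314, 290 and 310 CPM in WT DN3. Ssbp2 (gene 66970, chromosome 13, 91460305 to 91706175) had 35.7, 28.2 and 31.8 CPM in TG DN3 and 51.9, 49.2 and 52.1 CPM in WT DN3. Ssbp4 (gene 76900, chromosome 8, 70597485 to 70608387) had 96.4, 96.4 and 93.4 CPM in TG DN3 and 154, 118 and 144 CPM in WT DN3. For each of the 3 genes the TG and WT libraries did not overlap, as for 57.8% of all genes tested in DN3. Ssbp3 rose by a log2 difference of 0.44 ± 0.10 (adjusted p = 0.0077), Ssbp2 fell by 0.66 ± 0.11 (adjusted p = 0.00182) and Ssbp4 fell by 0.52 ± 0.11 (adjusted p = 0.00579). All 3 calls were kept in each of the 6 fits with a library left out. As shares of the summed SSBP FPKM, Ssbp3 made up 63.1% ± 1.72 in TG DN3 and 48.3% ± 1.23 in WT DN3, Ssbp4 30.3% ± 1.47 in TG DN3 and 41.5% ± 1.49 in WT DN3, and Ssbp2 6.63% ± 0.534 in TG DN3 and 10.2% ± 0.337 in WT DN3 (SD, n = 3 each). The summed FPKM was 221 ± 11 in TG DN3 and 240 ± 21.9 in WT DN3.

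Outside DN3, Ssbp3 was the SSBP gene that passed the test, in total DN and in CD4SP. Ssbp3 had 380, 345 and 368 CPM in TG total DN and 236, 239 and 275 CPM in WT total DN, a log2 difference of 0.49 ± 0.13 (adjusted p = 0.0495). That call was kept without TG DN replicate 2 or WT DN replicate 3, and lost without any of the other 4 libraries (adjusted p up to 0.249). In CD4SP Ssbp3 had 316, 297 and 304 CPM in TG and 171, 178 and 239 CPM in WT, a difference of 0.65 ± 0.19 (adjusted p = 0.0483). With the term for N it was lost in total DN (0.42, adjusted p = 0.401) and in CD4SP (0.61, adjusted p = 0.169). With a library left out the CD4SP call was kept only without WT CD4SP replicate 3 (adjusted p up to 0.219 in the other 5 fits). Ssbp2 in CD4SP was at 72.3, 249 and 117 CPM in TG and 65.2, 61.9 and 94.0 CPM in WT (1.0 ± 0.45, adjusted p = 0.137), with its highest value in the TG library with the highest Rag1. For Ssbp4 the genotype effect differed between DN3 and DP, by -0.84 ± 0.18 on the log2 scale (adjusted p = 0.0146). That test was lost without WT DN3 replicate 1 or 3 (adjusted p up to 0.0535). For Ssbp2 it differed between DN3 and CD4SP, by -1.61 ± 0.51 (adjusted p = 0.0332), kept in 5 of 12 fits with a library left out (adjusted p up to 0.0737): it was lost without any of TG DN3 replicates 1 to 3, WT DN3 replicates 1 and 3 and WT CD4SP replicates 1 and 2.

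**Figure D3:**
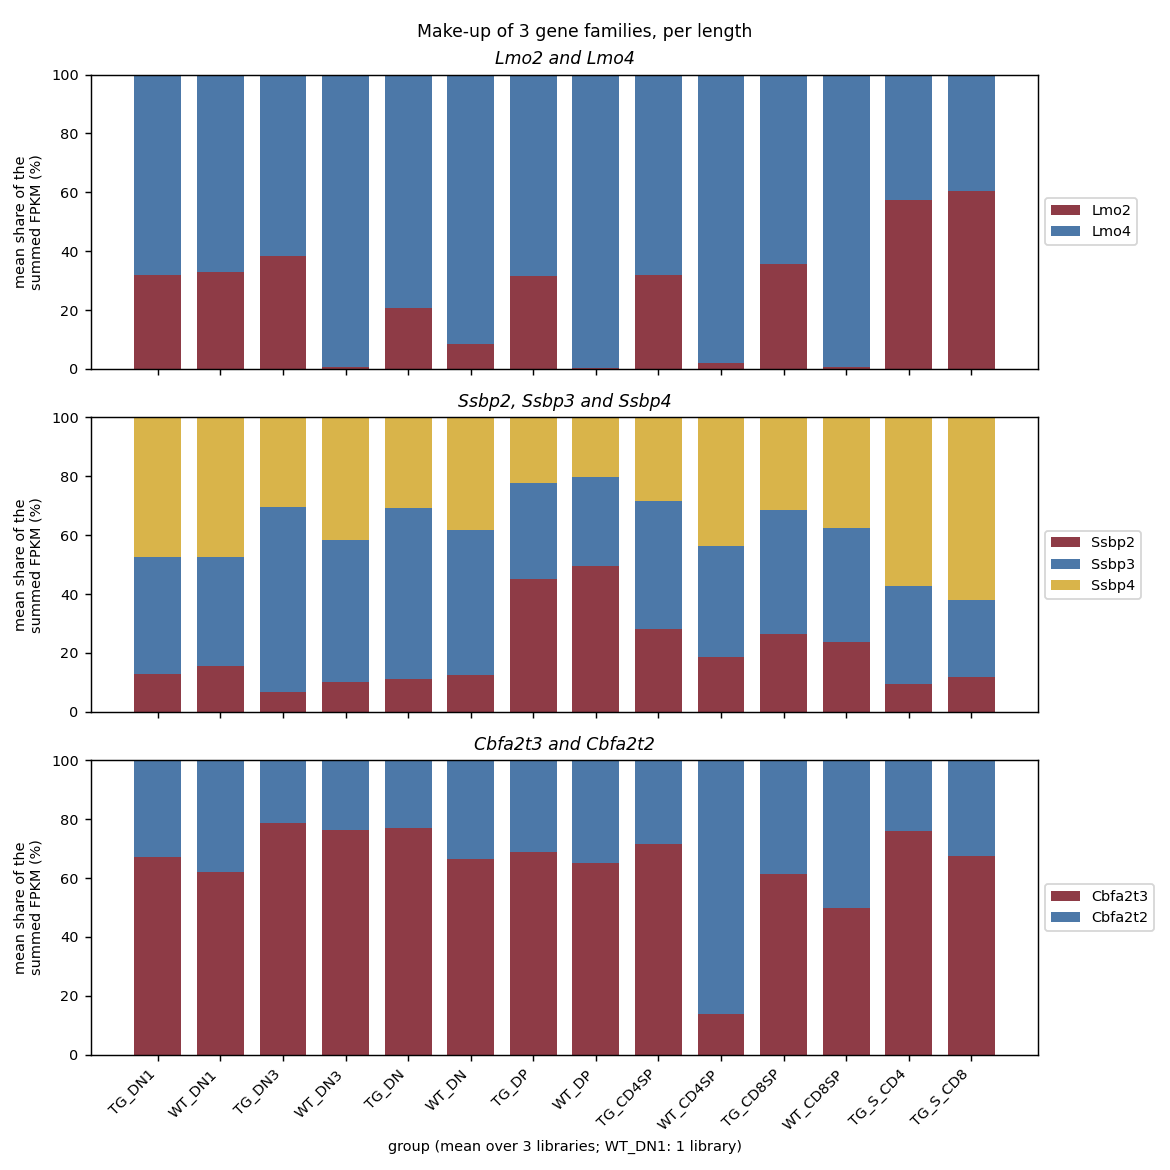
Mean share of each gene in the summed FPKM of its family (y axis, percent) by group (x axis), TG left of WT for each population; bars are means of 3 libraries, or the single WT DN1 library. Lmo2 takes 38.5% of the LMO sum in TG DN3 and 0.716% in WT DN3, Ssbp2 takes 49.5% of the SSBP sum in WT DP, and Cbfa2t3 takes 71.5% of the ETO sum in TG CD4SP and 13.8% in WT CD4SP.

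The SSBP genes also moved with the stage, and Ssbp2 had its highest mean in DP cells of both genotypes. Ssbp2 had 339, 234 and 254 CPM in WT DP and 51.9, 49.2 and 52.1 CPM in WT DN3, a log2 difference of 2.44 ± 0.19 (adjusted p = 1.03e-05). It made up 49.5% ± 1.76 of the SSBP sum in WT DP and 10.2% ± 0.337 in WT DN3 (SD, n = 3 each), and 45% ± 4.72 in TG DP. Past DP it fell again, by a log2 difference of 1.85 ± 0.24 in WT CD4SP (adjusted p = 0.000762) and 1.44 ± 0.37 in WT CD8SP (adjusted p = 0.0187) relative to WT DP. The CD8SP call was lost without WT CD8SP replicate 1 or 2 (adjusted p up to 0.0832), and the third library, with high Rag1, had 164 CPM beside 77.7 and 59.9 CPM. Ssbp4 fell by 0.85 ± 0.15 in WT DP relative to WT DN3 (adjusted p = 0.00127) and rose by 0.58 ± 0.11 in WT CD4SP relative to WT DP (adjusted p = 0.00561). It rose by 0.45 ± 0.13 in WT CD8SP relative to WT DP (adjusted p = 0.0289), a call kept in 1 of 6 fits with a library left out, that without WT DP replicate 1 (adjusted p up to 0.124). In the spleen Ssbp4 was the leading member, at 57.3% ± 6.26 of the SSBP sum in TG S_CD4 and 62.0% ± 2.21 in TG S_CD8 (SD, n = 3 each). Ssbp2 fell by 2.34 ± 0.44 in TG S_CD4 relative to TG CD4SP (adjusted p = 0.0161) and by 2.20 ± 0.50 in TG S_CD8 relative to TG CD8SP (adjusted p = 0.0167). Ssbp3 fell by 1.13 ± 0.23 in TG S_CD4 (adjusted p = 0.0192) and by 1.72 ± 0.31 in TG S_CD8 (adjusted p = 0.00738), each relative to its thymic counterpart.

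Lmo4 (gene 16911, chromosome 3, 144188530 to 144205255), the LIM-only gene that was expressed in every group, passed the edgeR genotype test in none of the stages. It had 36.5, 34.2 and 35.4 CPM in TG DN3 and 40.2, 31.0 and 40.4 CPM in WT DN3, with a log2 difference of -0.05 ± 0.13 (adjusted p = 0.742). In total DN it had 129, 67.0 and 75.8 CPM in TG and 43.6, 44.1 and 57.8 CPM in WT. The libraries did not overlap, as for 39.2% of all genes tested in total DN. The difference of 0.85 ± 0.26 did not pass (adjusted p = 0.0717), while it passed by DESeq2 (0.86, adjusted p = 0.0165), in the fit of all libraries (0.90, adjusted p = 0.0153) and without TG DN replicate 2 (1.03, adjusted p = 0.0294). The make-up of the LIM-only genes differed with Lmo2. By FPKM, Lmo2 made up 38.5% ± 3.14 of the sum of Lmo2 and Lmo4 in TG DN3 and 0.716% ± 0.15 in WT DN3, and 57.5% ± 9.58 in TG S_CD4 and 60.5% ± 6.37 in TG S_CD8 (SD, n = 3 each). In DN1 the shares were 32.0% ± 1.5 in TG (n = 3) and 33.0% in the WT library. Across stages Lmo4 fell by 1.31 ± 0.10 on the log2 scale in TG DN3 relative to TG DN1 (adjusted p = 1.15e-05) and rose by 0.74 ± 0.19 in WT DP relative to WT DN3 (adjusted p = 0.00744). It fell by 1.22 ± 0.24 in TG S_CD4 relative to TG CD4SP (adjusted p = 0.0176) and by 1.25 ± 0.23 in TG S_CD8 relative to TG CD8SP (adjusted p = 0.00802).

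Cbfa2t3 (gene 12398, chromosome 8, 122625136 to 122699332), the ETO2 corepressor gene, was called higher in TG cells in DN3, total DN and CD4SP. In DN3 it had 374, 309 and 417 CPM in TG and 201, 193 and 207 CPM in WT. In CD4SP it had 198, 185 and 179 CPM in TG and 4.89, 4.36 and 18.6 CPM in WT. The TG CD4SP libraries lay close together, unlike those of Lyl1, and far above every WT CD4SP library. In total DN it had 326, 202 and 297 CPM in TG and 106, 145 and 158 CPM in WT, in DP 253, 266 and 151 CPM in TG and 242, 160 and 137 CPM in WT, and in CD8SP 108, 124 and 173 CPM in TG and 49.3, 47.2 and 92.0 CPM in WT. The groups overlapped in DP and not in the other 4 stages. Of all genes tested, 57.8% did not overlap in DN3, 39.2% in total DN, 49.7% in CD4SP and 25.9% in CD8SP. In DN1 it had 129, 82.4 and 77.4 CPM in TG and 67.0 CPM in the WT library. In the spleen it had 110, 98.4 and 95.7 CPM in TG S_CD4 and 160, 47.7 and 46.2 CPM in TG S_CD8, whose replicate 1 also had 416 CPM of Cd8a beside 1480 and 1470 CPM in the others and a B-cell marker sum of 3480 CPM.

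The log2 difference of Cbfa2t3 between TG and WT was 0.89 ± 0.13 in DN3 (adjusted p = 0.00072), 0.97 ± 0.22 in total DN (adjusted p = 0.0311) and 4.34 ± 0.61 in CD4SP (adjusted p = 0.00881). The DN3 call was kept in all 6 fits with a library left out. The total DN call was kept only without TG DN replicate 2 (adjusted p up to 0.129 in the other 5 fits), and with the term for N, which 2 of the 3 TG and 0 of the 3 WT total DN columns carry, it was lost (0.53, adjusted p = 0.444). The CD4SP call was lost without WT CD4SP replicate 1 or 2 (adjusted p up to 0.0592). The CD4SP difference was 4.32 with the term for N, which leaves TG CD4SP replicate 2 alone against WT. Leaving replicates 1 and 3 out makes the same contrast and gave 4.33. In CD8SP the difference of 1.10 ± 0.31 did not pass (adjusted p = 0.10), and with replicate 3 of both groups left out, a choice made after their Rag1 was seen, it was 1.27 and passed (adjusted p = 0.0198). The genotype effect differed between DN3 and CD4SP by -3.39 ± 0.62 (adjusted p = 0.00335), which was kept in all 12 fits with a library left out. The CD4SP and CD8SP effects differed by 3.21 ± 0.69, which did not pass (adjusted p = 0.0726).

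In WT cells the gene fell after DP. Cbfa2t3 fell by 4.23 ± 0.63 on the log2 scale in WT CD4SP relative to WT DP (adjusted p = 0.00159) and by 1.5 ± 0.32 in WT CD8SP relative to WT DP (adjusted p = 0.01). The CD8SP call was lost without WT CD8SP replicate 1 (adjusted p = 0.0512). TG CD4SP values lay between 179 and 198 CPM and thus in the range of WT DP (137 to 242 CPM) and next to WT DN3 (193 to 207 CPM). Il2ra, a DN3 marker, was at 349, 20.4 and 208 CPM in TG CD4SP and 28.4 to 47.6 CPM in WT CD4SP, so it was above WT in replicates 1 and 3 and below it in replicate 2. TG S_CD4 libraries, with Rag1 at 1.14 to 3.37 CPM, had 95.7 to 110 CPM of Cbfa2t3. The part of cell makeup in the CD4SP difference was not tested, and no WT spleen was sequenced beside these. Cbfa2t3 fell by 0.89 ± 0.16 in TG S_CD4 relative to TG CD4SP (adjusted p = 0.0142), lost without TG S_CD4 replicate 1 or 2 (adjusted p up to 0.0676).

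Cbfa2t2 (gene 12396, chromosome 2, 154436098 to 154539356), the MTGR1 corepressor gene, passed the genotype test in DN3 and in none of the other stages. It had 74.0, 83.9 and 70.3 CPM in TG DN3 and 42.1, 56.0 and 42.3 CPM in WT DN3, and the log2 difference was 0.72 ± 0.14 (adjusted p = 0.00321). In DP it had 74.8, 78.6 and 75.1 CPM in TG and 76.3, 71.7 and 73.5 CPM in WT, and the difference of 0.05 ± 0.13 did not pass (adjusted p = 0.843). The TG DN3 level was therefore near the level that WT cells had in DP. The genotype effects in DN3 and DP differed by 0.65 ± 0.19 (adjusted p = 0.0465), a test that was kept in 2 of 12 fits with a library left out, those without WT DN3 replicate 2 or the library labelled TG DP replicate 3 (adjusted p up to 0.132). Of the sum of Cbfa2t3 and Cbfa2t2 FPKM, Cbfa2t3 held 71.5% ± 6.09 in TG CD4SP and 13.8% ± 9.52 in WT CD4SP (SD, n = 3 each), so the leading corepressor gene of WT CD4SP cells was Cbfa2t2. Cbfa2t2 fell by 1.20 ± 0.25 in TG S_CD4 relative to TG CD4SP (adjusted p = 0.0204) and by 1.37 ± 0.18 in TG S_CD8 relative to TG CD8SP (adjusted p = 0.00266).

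**Figure D4:**
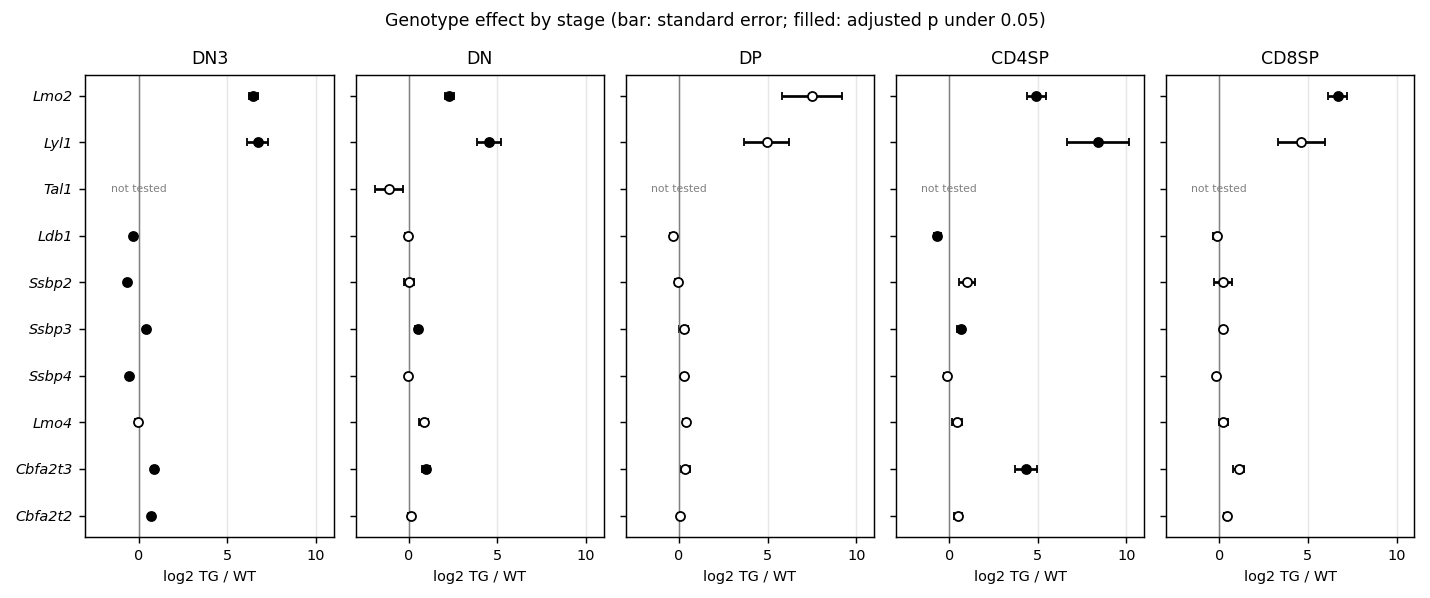
Log2 difference of each member between TG and WT (x axis) by stage (panels), with the standard error as bars and 3 libraries per group; filled points have an adjusted p under 0.05, and Tal1 was filtered as low in 4 of the 5 stages. Lmo2 and Lyl1 stand far right in every panel, and the other members lie within 1.12 of 0 except Cbfa2t3 in CD4SP, at 4.34.

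Counted over the members in DN3, 9 of the 10 passed the filter, 5 were called higher in TG and 3 lower, where 45.7% of the 12037 genes tested were called (23.4% higher, 22.2% lower). Member counts and medians here include Lmo2, the gene that the label of the TG animals names. The median log2 difference was 0.44 over the members tested and -0.028 over all genes. TG and WT libraries did not overlap for 8 of the 9, and for 57.8% of all genes tested. In 1 fit of all 40 libraries 4 members were called in DN3, which were Lmo2, Lyl1, Ssbp4 and Cbfa2t2, and the adjusted p of Ldb1, Ssbp2, Ssbp3 and Cbfa2t3 were 0.199, 0.25, 0.167 and 0.141. In total DN all 10 members passed the filter and 4 were called, all higher, where 12.4% of genes were called (7.47% higher, 4.89% lower). There 5 members did not overlap between the genotypes (39.2% of all genes). The 9 erythroid markers summed to 48 to 2740 CPM in TG total DN and 1550 to 22200 CPM in WT total DN, and the 5 mature T markers to 987 to 1230 CPM in TG and 519 to 608 CPM in WT, and their part was not tested. In CD4SP 4 were called higher and 1 lower of 9 tested (25.9% of all genes called, 15% higher and 11% lower), and 6 did not overlap (49.7% of all genes). With replicate 2 as the lone TG CD4SP library, the log2 difference was 1.77 for Ssbp2, 0.96 for Cbfa2t2 and 0.61 for Ssbp3. That library had Cd8a at 3070 CPM and Rag1 at 6440 CPM, and Ssbp2 averaged 276 CPM in WT DP cells. In CD8SP 1 of 9 was called, which was Lmo2 (4.45% of all genes), and 6 did not overlap (25.9%). In DP 0 of 9 members and 0.0% of all genes were called by edgeR, and 3 members did not overlap (22.5% of all genes), while 2450 genes and 2 members passed 0.05 without adjustment and DESeq2 made 605 calls, 2 of them members. Without the library labelled TG DP replicate 3, singled out by its Lmo2 value, edgeR called 906 genes and 2 members, Lmo2 and Lyl1. In DN1 0 of 10 members and 0.0% of genes were called by edgeR, with 157 genes and 0 members at an unadjusted p under 0.05 and 3 genes and 0 members called by DESeq2.

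The genotype effects were called different between DN3 and DP for 2 members (10.2% of all genes), Ssbp4 and Cbfa2t2, and between DN3 and CD4SP for 2 members (30.9% of all genes), Ssbp2 and Cbfa2t3. Between DN3 and CD8SP, edgeR called 0 members (6.98% of all genes), with 0 members at an unadjusted p under 0.05 and 0 called by DESeq2. Between CD4SP and CD8SP it called 0 members (0.032% of all genes), with 2 at an unadjusted p under 0.05 and 1 called by DESeq2. Across normal stages, 5 members were called between WT DP and WT DN3 (60.0% of all genes), 5 between WT CD4SP and WT DP (43.9%) and 5 between WT CD8SP and WT DP (37.7%). In addition to those above, Ldb1 rose by 0.49 ± 0.17 in WT DP relative to WT DN3 (adjusted p = 0.0331), a call lost without any WT DN3 library (adjusted p up to 0.0919), and fell by 0.64 ± 0.18 in WT CD8SP relative to WT DP (adjusted p = 0.0235), a call lost without WT CD8SP replicate 1 or 2 or WT DP replicate 2 or 3 (adjusted p up to 0.0947). Cbfa2t2 rose by 0.66 ± 0.15 in WT DP relative to WT DN3 (adjusted p = 0.00494) and fell by 0.78 ± 0.11 in WT CD4SP relative to WT DP (adjusted p = 0.0009). In WT CD8SP relative to WT DP it fell by 0.57 ± 0.15 (adjusted p = 0.0191), lost without the same 4 libraries as Ldb1 (adjusted p up to 0.0825). In TG DN3 relative to TG DN1, 4 members were called higher and 2 lower (61.2% of all genes, 28.0% higher and 33.2% lower). There Ssbp3 rose by 1.35 ± 0.13 (adjusted p = 4.68e-05), Cbfa2t3 by 1.81 ± 0.22 (adjusted p = 0.000193) and Cbfa2t2 by 0.93 ± 0.16 (adjusted p = 0.00116). The part of the B-cell and myeloid marker sums of DN1, given above, was not tested. In the spleen relative to the thymus, 5 members were called lower in TG S_CD4 (24.5% of all genes, 12.5% higher and 12% lower) and 4 in TG S_CD8 (37.3%, 17.2% higher and 20.1% lower), and 0 were called higher. The 6 B-cell markers summed to 454 to 1820 CPM in TG S_CD4 and 19.6 to 56.4 CPM in TG CD4SP, and to 482 to 3480 CPM in TG S_CD8 and 8.4 to 26.1 CPM in TG CD8SP. The 7 myeloid markers summed to 348 to 2840 CPM in TG S_CD4 and 26.5 to 91.1 CPM in TG CD4SP. They summed to 84.1 to 2920 CPM in TG S_CD8 and 5.12 to 20.3 CPM in TG CD8SP. The 6 DP markers summed to 1070 to 1670 CPM in TG S_CD4 and 1980 to 16400 CPM in TG CD4SP, and to 759 to 3210 CPM in TG S_CD8 and 3780 to 13700 CPM in TG CD8SP. The part of these marker lists was not tested. In S_CD4, Ssbp2, Lmo4 and Cbfa2t2 lost their call without any of the TG S_CD4 libraries (adjusted p up to 0.0798) and Ssbp3 without replicate 1 or 2 (adjusted p = 0.0614 at most), while all 4 S_CD8 calls were kept in each of the 6 fits.

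Other genes of the pathway were followed by lists. Of 7 DNA-binding and E-protein partners, 5 were tested in DN3, with 4 higher in TG and 1 lower, where 45.7% of all genes were called (23.4% higher, 22.2% lower). Tcf12 (HEB) averaged 714 ± 10.8 CPM in TG DN3 and 350 ± 73.5 CPM in WT DN3 (SD, n = 3 each), a log2 difference of 1.05 ± 0.15 (adjusted p = 0.000747). Gata3, the T-cell GATA factor, rose by 0.85 ± 0.10 (adjusted p = 0.00027) and Tcf3 (E2A) by 0.41 ± 0.10 (adjusted p = 0.0106). Gata1, the erythroid and mast-cell GATA factor, averaged 4.77 ± 0.941 CPM in TG DN3 and 2.86 ± 0.583 CPM in WT DN3 and rose by 0.75 ± 0.26 (adjusted p = 0.0394), whereas Tcf4 (E2-2) fell by 0.74 ± 0.13 (adjusted p = 0.00189). The 5 paralogues of the members, Lmo1, Lmo3, Ldb2, Runx1t1 and Tal2, did not pass the filter in DN3. The median log2 difference of the partners tested was 0.75, against -0.028 over all genes.

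Of 13 corepressors and regulators, all were tested in DN3, with 7 higher in TG and 2 lower (23.4% and 22.2% of all genes) and a median log2 difference of 0.54. Zfpm1 (FOG1), a GATA cofactor, averaged 160 ± 12.4 CPM in TG DN3 and 57.1 ± 2.8 CPM in WT DN3 (1.51 ± 0.10, adjusted p = 1.58e-05). Kdm1a (LSD1), a histone demethylase gene, rose by 0.58 ± 0.09 (adjusted p = 0.00141). The histone deacetylase genes Hdac2 and Hdac3 fell by 0.33 ± 0.10 and 0.48 ± 0.10 (adjusted p = 0.0209 and 0.0052). In total DN, 0 of the 13 were called (12.4% of all genes) and in CD4SP 1 of 12 (25.9%), Gfi1, which rose by 2.08 ± 0.26 (adjusted p = 0.0071).

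Of 13 known target genes of the complex, 11 were tested in DN3, with 7 higher in TG and 1 lower (23.4% and 22.2% of all genes) and a median log2 difference of 0.85. Hhex, a homeobox gene of early blood cells, averaged 127 ± 23.2 CPM in TG DN3 and 1.14 ± 0.622 CPM in WT DN3 (6.82 ± 0.32, adjusted p = 6.67e-06). Nfe2, an erythroid and megakaryocytic factor gene, averaged 186 ± 46.2 CPM in TG DN3 and 20.3 ± 5.2 CPM in WT DN3 (3.22 ± 0.25, adjusted p = 6.62e-05). Erg, an ETS factor gene of stem cells, averaged 115 ± 29.6 CPM in TG DN3 and 27.0 ± 2.3 CPM in WT DN3 (2.12 ± 0.19, adjusted p = 6.93e-05). Fli1, Runx1 and Myb rose by 0.72 ± 0.10, 0.85 ± 0.13 and 0.76 ± 0.11 (adjusted p = 0.000609, 0.000987 and 0.000755). Mef2c was lower, at 0.0822 ± 0.0805 CPM in TG DN3 and 3.80 ± 0.351 CPM in WT DN3 (-5.43 ± 0.49, adjusted p = 7.23e-05). Other known targets of red-cell and myeloid lineages were low in DN3, such as Epor at 0.473 ± 0.0514 CPM in TG and 0.566 ± 0.279 CPM in WT. In total DN 5 of 10 were called, all higher (7.47% of all genes), in CD4SP 6 of 9, all higher (15% of all genes), and in CD8SP 1 of 9 (4.45%), Runx1, at 0.87 ± 0.18 (adjusted p = 0.0437). The mast and basophil markers, of which Kit and Gata2 are also on this list, summed to 11.3 to 2020 CPM in TG CD4SP and 5.49 to 7.61 CPM in WT CD4SP, and their part in the CD4SP calls was not tested. These lists were chosen with earlier results of these data known and are no independent evidence of a direction.

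Across the 14 group means, as log2(CPM + 1), the genes whose pattern was most like that of each member were searched among 11188 genes. Lmo2 was followed most closely by Dennd3 (Pearson r = 0.951), Rxra (0.904) and Man2b2 (0.897), and Lyl1 by Hhex (0.978), Arhgap6 (0.971) and Plscr1 (0.929). Tal1, with few reads, ran with Ube2l6 (0.97) and the red-cell membrane gene Slc4a1 (0.947), in groups whose erythroid marker sums differed. Ldb1 ran with Pbx2 (0.971), Stard3 (0.942) and Krba1 (0.921), and Lmo4, the member with the weakest match, with Fmnl3 (0.827), Dennd2c (0.824) and Olfml3 (0.811). Among the SSBP genes, Ssbp2 ran with Clk3 (0.979), Mylpf (0.966) and Atl2 (0.965), Ssbp3 with Cul7 (0.974), Homer3 (0.962) and Fbxl19 (0.961), and Ssbp4 with Adprhl2 (0.899), Tomm40l (0.866) and Cops9 (0.857). Cbfa2t3 ran with Tns3 (0.931), Cxxc5 (0.903) and Cmtm7 (0.903), and Cbfa2t2 with Usp22 (0.985), Ehmt1 (0.98) and Msh6 (0.977). Among the members themselves the closest pairs were Ssbp3 with Cbfa2t2 (0.85) and Lmo2 with Lyl1 (0.79), and no member was among the 3 nearest genes of another. The groups share genotype and library sets, so these values describe the 14 means and carry no test.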

How the data were processed

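RNA was sequenced in 40 libraries of sorted TG and WT mouse T cells, grouped by the labels. The authors deposited a table of read counts per gene with FPKM values of the same libraries beside them. The builds mm9 and mm10 and the tools MACS2, Bowtie2, DESeq2 and HISAT are listed, without roles, per the submitters' processing notes, and how reads were assigned to genes or strands was not stated. Reads of near-identical copies could have been split there. The 5 anti-LMO2 ChIP peak lists and the input library were not analysed here, and 4 columns of the table that match no sample used here (2 of counts) were left out.

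Counts were tested in R 4.3.3 with edgeR 4.0.16: filterByExpr (minimum count 10, minimum total 15), TMM, the robust quasi-likelihood test, two-sided, Benjamini-Hochberg adjustment over all genes tested and a threshold of 0.05. Log2 fold changes used a prior count of 0.125. There were 16 comparisons, each fitted on its own groups, except DN1, which used all 40 libraries. Levels are CPM computed from the deposited counts, and levels between genes use the FPKM of the authors. The test was checked on simulated counts. DESeq2 1.42.0, other scaling, no filter, a replicate block, a term for the 12 count columns whose names end in N, a fit of all libraries and each library left out were tried. There were 0 pairs of libraries with identical counts.

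All 10 members were named, with the 3 genes of highest r over group means for each (mean of 5 CPM or more in a group) and called genes of 4 lists; some genes under this rule are not reported here. The members and lists were chosen with earlier results of these data known. Replicate numbers were checked by the correlation of same-numbered deviations: all 3 exceeded 0.1 in TG DN3 against TG DN1 alone (0.377, 0.263 and 0.104), where the block changed no call.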

Additional observations from a re-analysis of the deposited data

Results flagged for a closer look

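The genotype effect, TG over WT on the log2 scale, was called different between stages for 4 members by a test of the difference itself in edgeR. Of all genes tested, 30.9% were called between DN3 and CD4SP and 10.2% between DN3 and DP. For Cbfa2t3 the effect in DN3 minus that in CD4SP was -3.39, kept in 12 of 12 fits with a library left out. For Ssbp2 the same difference was -1.61, kept in 5 of 12. For Ssbp4 the effect in DN3 minus that in DP was -0.84, kept in 10 of 12, and for Cbfa2t2 it was 0.65, kept in 2 of 12. In the fit of all libraries 0 members were called between DN3 and DP.

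Ssbp4 also lay in opposite directions in other stages, a contrast that was not tested. Every TG DP library was above every WT DP library, with a log2 difference of 0.30, and every TG CD8SP library was below every WT CD8SP library, with a difference of -0.18. Neither difference passed in its own stage (adjusted p = 0.256 and 0.479). Of all genes tested, 22.5% did not overlap between the genotypes in DP and 25.9% in CD8SP.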

How the results depend on the processing

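Numbers of genes in brackets are all genes called in the same fits, which moved as well. A count without a bracket is not set against all genes here. In the count of members called, DN3 (8) ran from 7 to 8 with a library left out (3802 to 6185 genes) and was 4 in a fit of all libraries (2644 genes). Total DN (4) was 2 with a term for the column suffix N (198 genes) and 1 to 5 with a library left out (179 to 3146 genes). DP (0) was 2 by DESeq2 (605 genes) and in the fit of all libraries, and 0 to 2 with a library left out (0 to 906 genes). CD4SP (5) was 0 to 4 (38 to 4329 genes) and CD8SP (1) 0 to 2 (9 to 724 genes) with a library left out. CD8SP was 2 by DESeq2 (1248 genes) and with replicate 3 of both groups left out (483 genes). For the differences of genotype effects, DN3 against DP (2) was 1 without a filter, 0 in the fit of all libraries and 0 to 3 with a library left out (352 to 2598 genes). DN3 against CD4SP (2) was 1 to 3 (2457 to 5265 genes) and DN3 against CD8SP (0) was 0 to 1 (433 to 1342 genes) with a library left out. CD4SP against CD8SP (0) was 1 by DESeq2 (694 genes), 1 in the fit of all libraries and 0 to 1 with a library left out (0 to 611 genes). WT CD8SP against WT DP (5) was 0 to 5 (2163 to 5495 genes) and TG S_CD4 against TG CD4SP (5) 0 to 6 (461 to 3227 genes) with a library left out. Members with an E-box (6) were 3 with 100 bases. The cause was not tested.

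With the replicate number as a block, 2 members were called in total DN, where 1494 of 12509 genes were called. Members called with the block were 3 in CD4SP, 2 in CD8SP and 1 in DN3 against CD4SP. For these comparisons the block fits are not set against all genes here. The counts of the other comparisons stayed within 1.5 times. All 3 correlations of same-numbered deviations exceeded 0.1 in TG DN3 against TG DN1 alone. In WT CD8SP against WT DP they were 0.454, 0.499 and 0.079, so whether the numbers pair samples elsewhere is not settled. Over single members and settings, 1608 values kept direction and side of the threshold, 115 lost their call, 35 gained one and 54 changed sign, of which 0 passed the test as reported and 0 passed under the alternative. The group with the highest mean differed under plain CPM or FPKM for Lmo2 and Cbfa2t2, and the lowest for Lmo2 and Tal1. Lmo2 in WT DN3, at 6 to 8 reads per library, limits the precision of its fold change.

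The changes of sign, on the log2 scale and as ranges where a library was left out, were these. For TG vs WT DN3, the sign changed with a library left out for Lmo4 (-0.17 to 0.0). For TG vs WT DN, the sign changed with a library left out for Ldb1 (-0.13 to 0.05), Ssbp2 (-0.38 to 0.20) and Ssbp4 (-0.10 to 0.04), and otherwise for Ldb1 in the fit of all libraries (0.0), Ssbp2 with the replicate block (-0.06), Ssbp2 with the term for N (-0.33) and Ssbp4 in the fit of all libraries (0.01). For TG vs WT DP, the sign changed with a library left out for Ssbp2 (-0.16 to 0.08) and Cbfa2t2 (-0.01 to 0.04). For TG vs WT CD8SP, the sign changed with a library left out for Ssbp2 (-0.38 to 0.75). For the genotype effect in DN3 minus DP, the sign changed with a library left out for Ldb1 (-0.14 to 0.10) and Ssbp3 (-0.15 to 0.34), and otherwise for Ldb1 with the replicate block (-0.01). For the genotype effect in DN3 minus CD8SP, the sign changed with a library left out for Lmo2 (-0.98 to 0.18), Ldb1 (-0.26 to 0.06) and Cbfa2t3 (-0.59 to 0.02). For the genotype effect in CD4SP minus CD8SP, the sign changed with a library left out for Ssbp4 (-0.05 to 0.14), Lmo4 (-0.03 to 0.47) and Cbfa2t2 (-0.22 to 0.21), and otherwise for Ssbp4 with RLE size factors (0.0) and Ssbp4 by DESeq2 (0.0). For TG vs WT DN1, the sign changed with a library left out for Tal1 (-0.35 to 0.17), and otherwise for Tal1 with the replicate block (0.24). For WT DP vs WT DN3, the sign changed with a library left out for Cbfa2t3 (-0.49 to 0.03). For WT CD4SP vs WT DP, the sign changed with a library left out for Ssbp3 (-0.41 to 0.07). For WT CD8SP vs WT DP, the sign changed with a library left out for Ssbp3 (-0.26 to 0.20). For TG DN3 vs TG DN1, the sign changed with a library left out for Ssbp4 (-0.01 to 0.03), and otherwise for Ssbp4 with RLE size factors (-0.01) and Ssbp4 by DESeq2 (-0.01). For TG S_CD4 vs TG CD4SP, the sign changed with a library left out for Lmo2 (-0.01 to 0.87), and otherwise for Lmo2 with replicate 2 as the lone TG CD4SP library (-0.33) and Lyl1 with replicate 2 as the lone TG CD4SP library (3.72, against -1.90 with all 3). For TG S_CD8 vs TG CD8SP, the sign changed with a library left out for Lmo2 (-0.17 to 0.59), Ldb1 (-0.32 to 0.0) and Ssbp4 (-0.17 to 0.29), and otherwise for Ssbp4 with RLE size factors (0.03), Ssbp4 by DESeq2 (0.03) and Ssbp4 in the fit of all libraries (0.03).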

Other observations

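Among paralogues that did not enter the tests, Lmo1, a T-cell oncogene related to Lmo2, averaged 0.141 ± 0.126 CPM in TG DN3 and 0.54 ± 0.221 CPM in WT DN3 (SD, n = 3 each), and the libraries did not overlap. Lmo3, Ldb2 and Runx1t1 had 0 reads in the TG DN3 libraries. Gata2, the stem and mast-cell GATA factor, averaged 0.165 ± 0.165 CPM in TG DN3 and had 0 reads in WT DN3.

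By FPKM, the ratio of Lyl1 to Lmo2 was 5.27 ± 2.4 in TG DN3 and 4.49 ± 4.84 in WT DN3 (SD, n = 3 each), where WT counts are few. In DN1 it was 0.612 ± 0.279 in TG (n = 3) and 1.1 in the WT library. The ratio of Cbfa2t3 to Lmo2 was 3.41 ± 0.798 in TG DN3 and 156 ± 32.5 in WT DN3.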
